A study of Mus musculus with 2 samples.

Results

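General capillary cells on the venous side were 2619 barcodes of mouse lung endothelium, of which 1187 came from the control and 1432 from the B16-F10 library. They were chosen by raw counts of unique molecular identifiers (UMIs, each marking 1 captured RNA molecule) of 24 genes. A barcode had to hold 1000 to 5000 genes, under 20% mitochondrial UMIs, at least 0.5% of its UMIs from Malat1 and at least 2 UMIs of the endothelial genes Pecam1 and Cdh5 together. It had to hold at least 3 UMIs of the general capillary (gCap) genes Gpihbp1, Kit and Aplnr, and at most 1 UMI each of an aerocyte set (Ednrb, Fibin, Apln), a vein set (Slc6a2, Amigo2, Mmp16, Tmem45a) and an artery set (Gja5, Stk32a, Sfrp1, Cytl1). Among the 9743 barcodes that passed these limits, the venous side was then taken by at least 2 UMIs of Vegfc, Chrm2 and Kcnh1, and by more of these than of the arterial-side genes Ntrk2, Adam23, Gja4 and Fam181b. The mirror rule gave 3236 arterial-side gCap cells, and 3888 gCap cells had no bias. All endothelial barcodes that passed numbered 15029, out of 3377042 barcodes in the 2 matrices.

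To examine how lung endothelial cells (ECs) respond when melanoma cells arrive, the study sorted ECs from C57BL/6 mice of WT genotype 6 h after an injection into the tail vein. Control mice received PBS, and the other mice received 400000 cells of B16-F10, a mouse skin melanoma line labelled with a green dye, in 100 µl of PBS. Sorted cells were Pecam1-positive and Ptprc-negative, with dyed melanoma cells collected from the injected lungs as well, and the cells of the mice in a treatment were pooled into 1 library per group. The labels give 2 mice per treatment and the study's methods give another number for pooled experiments, so the number of mice is not settled. With 1 library per group there was no replicate error, no test and no p-value. Every interval below is a 95% interval of counting error only, and differences between the libraries may come from the treatment, the mice or the handling, which cannot be told apart.

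General capillary cells line most of the alveolar capillary bed, where Gpihbp1 carries lipoprotein lipase to the luminal surface and Kit is a receptor for stem cell factor. Blood enters this bed from arterioles and leaves through venules, and capillary ECs change their gene expression along that path. Vegfc is a growth factor that acts through the receptor Flt4, Chrm2 is the M2 muscarinic acetylcholine receptor, and Kcnh1 is a voltage-gated potassium channel. Nr2f2, also called COUP-TFII, is a nuclear receptor required for vein identity, whereas Efnb2 and the Notch pathway mark arterial ECs.

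Depth was similar on the venous and arterial sides. Venous-side cells held 9674355 UMIs in control and 13282756 in the B16-F10 library, of library totals of 85794655 and 104978816. Their median depth was 7858 UMIs and 3120 genes in control and 8913 UMIs and 3370.5 genes in the B16-F10 library, with 1.97% and 2.27% mitochondrial UMIs. Arterial-side cells had medians of 7900 and 8741 UMIs. The libraries shared 25 barcodes of at least 500 genes, and 1 barcode was a member in both. Levels are given as CPM, the UMIs of a gene divided by all UMIs of a summed class and scaled to 1e+06, and differences as log2 ratios of 2 such levels. As a measure of free RNA, levels in barcodes of 1 to 100 UMIs are given as near-empty levels.

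The cells carried the markers of general capillaries and not those of aerocytes. The 47 gCap markers of the study summed to 31964 CPM in control and 27028 CPM in the B16-F10 library, against 5894 and 5734 CPM in aerocyte comparison cells. The 47 aerocyte markers summed to 1461 and 1358 CPM, against 17031 and 14778 CPM in aerocyte cells. These marker lists were chosen by the study partly on these libraries and are no independent evidence. For the vein label the picture was graded. The 35 vein markers summed to 1804 CPM in control venous-side cells, above the 1061 CPM of arterial-side cells, and far below the 9750 CPM of vein comparison cells, which carried at least 3 UMIs of the vein set. In the B16-F10 library the same sums were 2308, 1691 and 12043 CPM. The near-empty levels of this list were 1493 and 2171 CPM, between those of the 2 sides in each library. A second list of 12 venous identity genes differed less, with 1956 CPM on the venous and 1815 CPM on the arterial side in control, 1723 and 1604 CPM in the B16-F10 library, and 6086 and 6381 CPM in vein cells. By these sums the venous side was nearer to other gCap cells than to vein cells.

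The genes that chose the cells are given as description only. Gpihbp1 was found in 97.1% of control members and 97.0% of B16-F10 members, at 1356 and 1174 CPM, but its near-empty levels were nearly as high, at 1331 and 1212 CPM. Kit, at 939 and 1058 CPM, stood well above its near-empty levels of 336 and 351 CPM. Among the venous genes, Chrm2 was the most widespread, with a UMI in 77.5% of control members and 76.2% of B16-F10 members. Its level was 290 CPM (279 to 301) in control and 326 CPM (317 to 336) in the B16-F10 library, and its near-empty levels were 36.5 and 38.8 CPM.

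Among members, the levels of Vegfc and Kcnh1 differed between the libraries in opposite directions. Members were chosen by the sum of Vegfc, Chrm2 and Kcnh1, so the level of each among them depends on the others. Over all gCap cells, Vegfc was found in 17.0% of control and 16.4% of B16-F10 cells, with a log2 ratio of -0.15 (-0.24 to -0.07). Vegfc was found in 47.7% of control members and 35.9% of B16-F10 members, and its level was 195 CPM (186 to 204) and 138 CPM (131 to 144). Vein comparison cells held more Vegfc, at 538 and 510 CPM, whereas they held less Chrm2 than the venous side, at 118 and 135 CPM. Kcnh1 was found in 37.1% and 59.2% of members, and its level was 85.1 CPM (79.4 to 91.1) and 165 CPM (159 to 172). The share of members that had Kcnh1 as their only venous gene was 4.04% in control (3.00 to 5.33) and 12.3% in the B16-F10 library (10.6 to 14.1), while the share with Vegfc alone was 11.2% and 2.86%. Vegfc, Chrm2 and Kcnh1 were found together in 12.0% (10.2 to 14.0) of control members, and in 186 of the 1432 B16-F10 members.

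Kcnh1 was higher in the B16-F10 library in every class of cells examined. It entered the rule for the arterial side and for cells with no bias too, but not the choice of all gCap cells, vein cells or aerocytes. Over all gCap cells it had 29.7 CPM in control and 74.6 CPM in the B16-F10 library, a log2 ratio of 1.33 (1.23 to 1.43). On the arterial side it had 12.9 and 36.6 CPM (log2 ratio 1.5), in gCap cells with no bias 9.73 and 27.8 CPM (1.51), in vein cells 133 and 178 CPM (0.43) and in aerocytes 3.45 and 11.8 CPM (1.77). Its near-empty levels were 10.6 and 29.1 CPM. The levels on the arterial side, in cells with no bias and in aerocytes were thus near or under those of free RNA. Over all gCap cells, Vegfc had 59.8 and 53.8 CPM and Chrm2 102 and 134 CPM.

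Chrm2 lies on chromosome 6 (chr6:36388084-36528414, plus strand, GRCm38) and shares its start region with 9330158H04Rik, a gene on the minus strand (chr6:36209620-36390191) that was not used to choose the cells. The 2 annotated genes overlap by 2108 bases, and their start sites lie 2107 bases apart in the GENCODE annotation. RefSeq places the start of 9330158H04Rik at chr6:36388234, nearer to that of Chrm2, so the stretch of overlap is shorter there. 9330158H04Rik had 4.44 CPM on the venous side and 1.33 CPM on the arterial side in control (log2 ratio 1.74, 0.90 to 2.64), and 4.89 and 1.61 CPM in the B16-F10 library (1.61, 0.92 to 2.34). It was thus higher beside Chrm2 in both libraries, but it was found in 30 and 51 members only. Whether the counting used strand is not given in the sources used here, so reads of the overlapping stretch cannot be assigned to 1 of the pair with certainty. The RefSeq start regions of GRCm38.p6 are printed because they show that the start of each gene lies inside the other, on opposite strands and facing each other, at chr6:36387834-36388133 on the plus strand and chr6:36388185-36388484 on the minus strand, with the first 50 transcribed bases in capitals.
Chrm2: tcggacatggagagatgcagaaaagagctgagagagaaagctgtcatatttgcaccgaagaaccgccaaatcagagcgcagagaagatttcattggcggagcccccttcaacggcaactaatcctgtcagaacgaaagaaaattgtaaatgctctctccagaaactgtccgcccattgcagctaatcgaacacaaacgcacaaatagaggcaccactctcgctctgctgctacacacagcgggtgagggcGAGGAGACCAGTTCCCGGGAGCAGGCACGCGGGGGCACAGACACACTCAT
9330158H04Rik: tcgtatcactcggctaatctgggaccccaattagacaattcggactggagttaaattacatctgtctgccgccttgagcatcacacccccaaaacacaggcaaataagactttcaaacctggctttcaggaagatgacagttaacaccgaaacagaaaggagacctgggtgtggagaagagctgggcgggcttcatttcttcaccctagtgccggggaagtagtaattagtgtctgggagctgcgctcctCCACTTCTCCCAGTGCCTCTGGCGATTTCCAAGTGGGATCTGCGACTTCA

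The share of gCap cells on the venous side was 23.6% in control (1187 of 5034, 22.4 to 24.8) and 30.4% in the B16-F10 library (1432 of 4709, 29.1 to 31.7). The difference was 6.83 percentage points (5.07 to 8.59). The arterial side also took a larger share, 30.5% and 36.2%, and cells with no bias a smaller one, 46.0% and 33.4%. The difference on the venous side depended on Kcnh1, since the share without it was 20.3% and 21.7%, a difference of 1.44 points with an interval that included 0 (-0.175 to 3.06). It was 4.43 points without Chrm2 and 8.38 points without Vegfc. With each gCap cell thinned to 4000 UMIs the shares were 14.9% and 21%, a difference of 6.08 points. Since a gene of the rule moved with the library, the share describes what the rule picked.

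**Figure D1:**
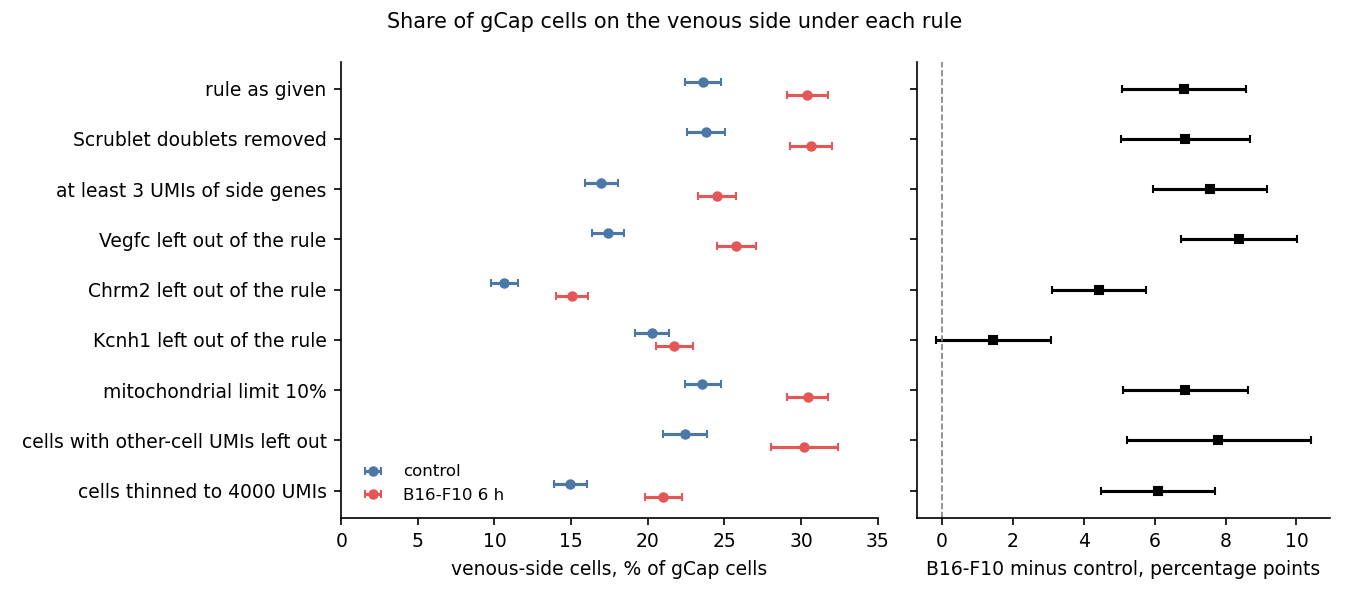
Share of gCap cells on the venous side in control and B16-F10 libraries (left, % with exact 95% intervals) and their difference in percentage points (right, Newcombe intervals), for the rule as given and each alternative. The difference lies between 4.43 and 8.38 points in all but 1 setting, and it is 1.44 points where Kcnh1 is left out.

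Vein markers that the rule did not use, taken as a sum, increased with the number of venous-gene UMIs in a cell. For this the gCap cells were binned by these UMIs, and cells with 2 or more UMIs of the arterial-side genes (at 0 venous UMIs), or with no more venous-gene than arterial-side UMIs (at 1 or more), were left out, so the bins hold no arterial-side cells and only some of those with no bias. In control cells with 0 venous-gene UMIs the vein list summed to 1169 CPM (1149 to 1190), and in cells with 8 or more it reached 2344 CPM (2267 to 2422). The B16-F10 library had the same order, from 1492 CPM to 2817 CPM (2759 to 2875). Just inside the rule, at 2 UMIs, the list had 1528 CPM in 333 control cells and 2008 CPM in 277 B16-F10 cells. Just outside it, at 1 UMI, the list had 1339 CPM in 349 cells and 1897 CPM in 224 cells. The artery list differed more at this edge in control, with 3566 CPM (3491 to 3643) at 1 UMI and 2746 CPM (2682 to 2812) at 2 UMIs, the widest gap between neighbouring bins, and in the B16-F10 library it had 1763 and 1665 CPM. Nr2f2 alone had no such order. From 0 UMIs to 8 or more it had 21.8, 18.8, 24.9, 23.3, 38.2 and 34.7 CPM in control and 30.2, 32.7, 23.3, 25.7, 25.1 and 52.8 CPM in the B16-F10 library, where members with 2 to 7 UMIs had lower values than the cells outside the rule, with intervals that overlapped. Between the end bins the artery list went from 4043 to 2511 CPM in control and from 2395 to 1549 CPM in the B16-F10 library. Deeper cells hold more UMIs of every gene, and median depth went from 6412.5 to 8866 UMIs along the control bins, so depth moves with the score.

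**Figure D2:**
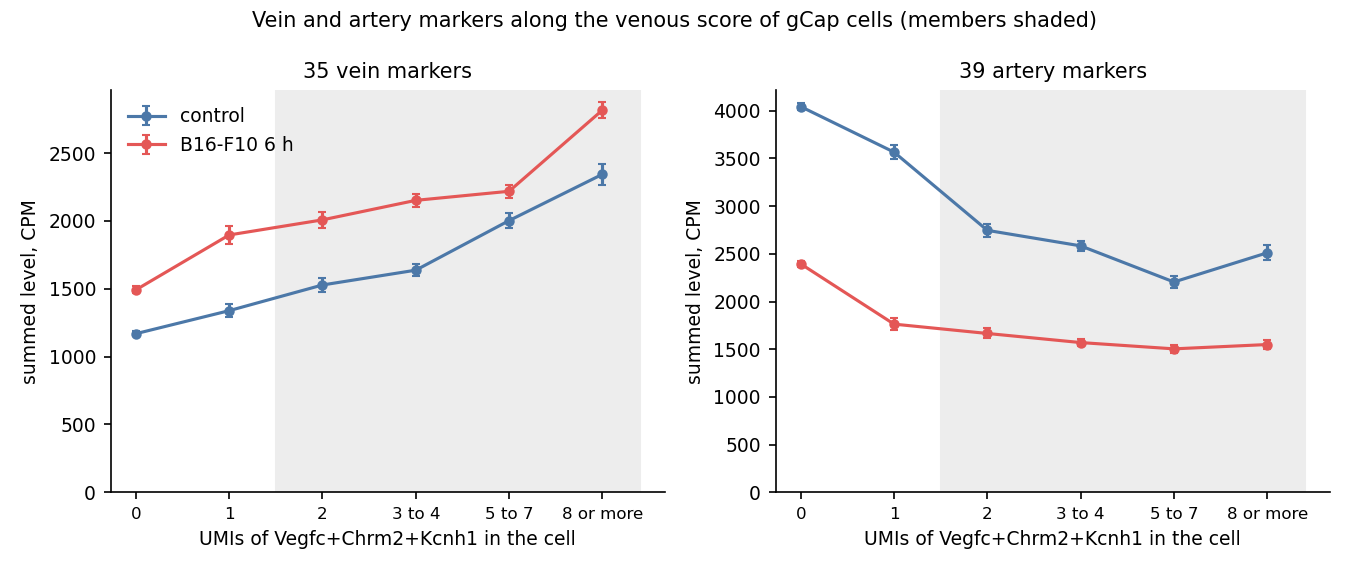
Summed level (CPM, exact Poisson 95% intervals) of 35 vein markers (left) and 39 artery markers (right) in gCap cells binned by their UMIs of Vegfc, Chrm2 and Kcnh1, without arterial-side cells and part of those with no bias, and with the rule's members shaded. Vein markers are higher and artery markers lower in the last bin than in the first in both libraries, and every bin of the B16-F10 library lies above control for vein markers and below it for artery markers.

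The venous and arterial sides differed in few genes beyond those that chose them. Of 12721 genes measured, 77 were at least 1.5-fold higher on the venous side in both libraries with both intervals above 0 (0.605%), and 100 were lower (0.786%). The vein list stood apart from this background, with 13 of its 32 measured members called higher and Tshz2 called lower. Its median log2 ratio was 0.81 in control and 0.51 in the B16-F10 library, against -0.00 in both for all genes. The artery list had 18 of 38 members called lower and none higher, with medians of -0.73 and -0.85. Both lists are the study's own and partly chosen on these libraries.

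Among vein-list members, Ptgs1, which encodes cyclooxygenase 1, had 222 CPM on the venous side and 80.9 CPM on the arterial side in control (log2 ratio 1.45, 1.35 to 1.56), and 137 and 66.9 CPM in the B16-F10 library (1.03, 0.92 to 1.14). It was found in 65.3% and 58.2% of members. Gm30382, a gene with no assigned function, had 364 and 130 CPM in control (1.49, 1.40 to 1.57) and 370 and 163 CPM in the B16-F10 library (1.18, 1.11 to 1.25). These were the best-sampled genes of the venous side that the rule had not used. Chn2, which encodes a Rac GTPase-activating protein, had 14.9 against 4.0 CPM in control and 22.2 against 5.65 CPM in the B16-F10 library. The LIM homeobox factor Lhx6 had 3.82 against 0.627 CPM in control and 12.6 against 5.33 CPM in the B16-F10 library, so it was higher on the venous side in each library and higher in the B16-F10 library on each side.

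Receptors and transcription factors were among the other genes named. Chrm3, the M3 muscarinic receptor and a relative of Chrm2, had 33.7 against 15.7 CPM in control (1.10, 0.85 to 1.37) and 30.7 against 10.5 CPM in the B16-F10 library (1.54, 1.28 to 1.82). Nr2f2 had 28.9 against 16.1 CPM (0.84, 0.58 to 1.11) and 31.7 against 21.1 CPM (0.59, 0.38 to 0.80). The nuclear receptor Nr5a2 had ratios of 1.57 and 1.06, the histone deacetylase Hdac9 of 0.88 and 1.01, and the protein kinase C isoform Prkcq of 1.07 and 1.12. Prss23, a serine protease of the vein list, had ratios of 1.16 and 0.79. Bst1, 1700020G17Rik and Gm5149 had ratios between 1.12 and 1.72 in both libraries.

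On the arterial side the chemokine Cxcl12 was the best-sampled gene called, at 603 CPM against 210 CPM on the venous side in control (log2 ratio of venous over arterial -1.52, -1.59 to -1.45) and 510 against 183 CPM in the B16-F10 library (-1.48, -1.54 to -1.41). The tyrosine kinase gene Bmx, a marker of arterial ECs, had 31.7 against 6.62 CPM and 9.56 against 1.88 CPM. Efnb2, named here after its values were seen, had ratios of -0.65 and -0.62, and Mgll, which encodes monoacylglycerol lipase, of -1.51 and -1.59. Atp13a3 (-2.82 and -1.62) and Sgcz (7.21 against 1.86 CPM and 3.53 against 0.452 CPM) were low on both sides. Cxcl9, Cxcl10 and 2310039L15Rik were also called lower on the venous side, but on few cells. Of 450 Cxcl10 UMIs in arterial-side cells of the B16-F10 library, 255 lay in 1 cell, and without the 3 richest cells of each sum the control ratio changed from -4.33 to 0.40.

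Lymphatic markers differed between the sides, not all in the same direction. In control and the B16-F10 library Ccl21a had 2.89 and 4.29 CPM on the venous side and 12.4 and 65.8 CPM on the arterial side. In cells with no bias it had 40.0 and 258 CPM. Mmrn1, Reln and Maf were also lowest on the venous side. Pdpn was higher there than on the arterial side in control, at 1.24 CPM from 12 UMIs against 0.392 CPM. In the B16-F10 library Pdpn had 0.753 CPM on the venous and 0.834 CPM on the arterial side. Prox1 had 0.620 and 0.301 CPM on the venous side, 1.80 and 3.79 CPM on the arterial side and 2.62 and 9.80 CPM in cells with no bias. Lyve1 is a lymphatic marker that capillary ECs of the lung also carried. It had 1766 and 1584 CPM on the venous side and 1096 and 1210 CPM on the arterial side. Cells with no bias held more Lyve1 than either side, at 1869 and 2242 CPM. The part of lymphatic cells in the genes called lower on the venous side was not tested.

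**Figure D3:**
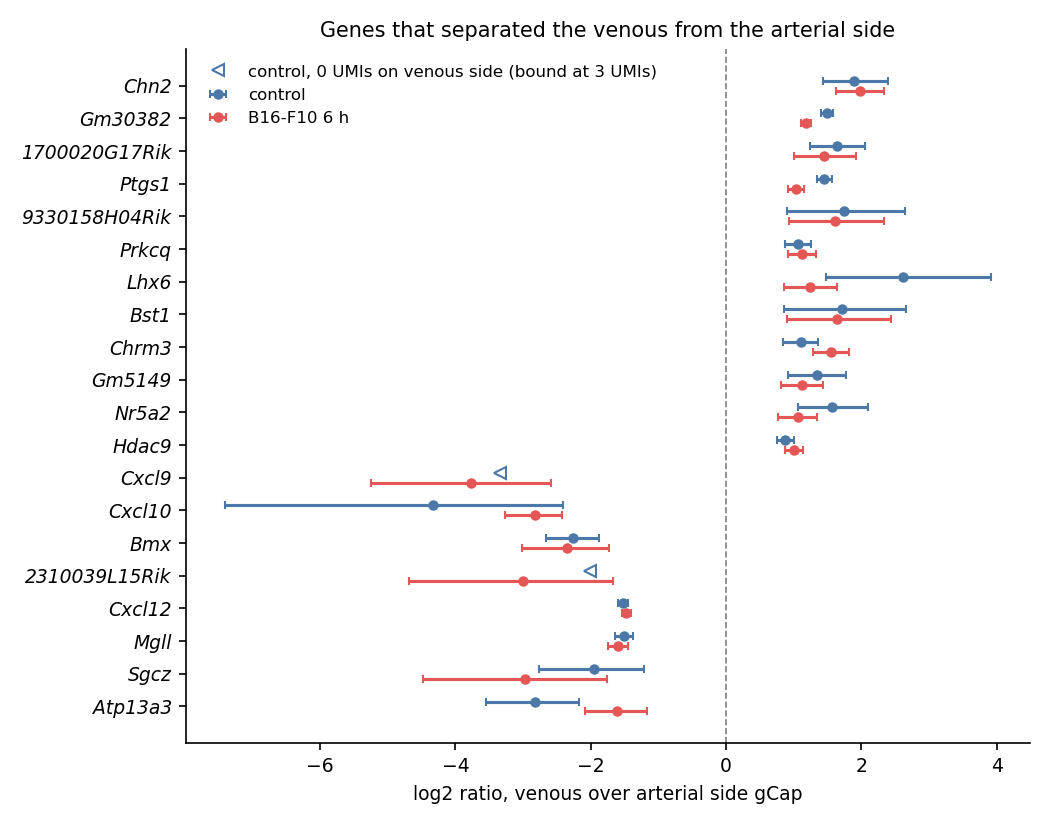
Log2 ratio of the venous over the arterial side of the gCap cells for the 20 genes named by rank, in control (blue) and B16-F10 (red), with exact 95% counting intervals. The 12 upper genes lie right of 0 and the 8 lower genes left of 0 in both libraries, and open triangles mark bounds for genes with 0 UMIs on the venous side.

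Several genes of the venous side were neighbours on their chromosomes. Of the 77 genes called higher and the 3 venous rule genes, 9 pairs lay within 200000 bases of each other, a count given with no comparison. Lhx6 (chr2:36081953-36105408) and Ptgs1 (chr2:36230426-36252272) lay 125017 bases apart on opposite strands. Gm30382 (chr3:149284418-149445301) and Gm5149 (chr3:149304829-149345840) overlapped on opposite strands over 41012 bases, and their reads there cannot be told apart without strand. Prss23 had Me3 at a distance of 105204 bases on chromosome 7. Me3 and the other partners were named after their values were seen.

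The B16-F10 library differed from control in many genes of the venous side. Over both sums 11430 genes reached 50 UMIs, and 320 of these were at least 2-fold higher with an interval above 0 (2.80%), and 205 were lower (1.79%). The median of all genes was -0.02, and 2724 of them were higher and 2896 lower beyond counting error, which is the background for the group counts below. The 44 reactive capillary (rCap) markers, a list that the study drew partly from these libraries, were all higher beyond counting error with a median log2 ratio of 1.57, and 30 were called. Its sum was 10014 and 19900 CPM in venous-side cells, and its near-empty levels were 9676 and 16798 CPM, so free RNA held more of the list too, whose part in the cells' levels was not tested beyond a subtraction at 5%. On the arterial side the same list had a median of 1.47, also with 30 called. The following gene groups are ordered by their role.

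Inhbb, which encodes the beta B subunit of activins and inhibins, had 2.89 CPM in control and 82.5 CPM in the B16-F10 library (log2 ratio 4.83, 4.29 to 5.43), and the cells with a UMI numbered 16 and 276, or 1.35% and 19.3% of members. Its near-empty levels were 3.88 and 54.5 CPM. Lalba, which encodes the milk protein alpha-lactalbumin, had 0.207 CPM from 2 UMIs in control and 21.4 CPM from 284 UMIs in 118 cells (6.69, 4.83 to 9.75). On the arterial side their ratios were 4.15 and 4.80. The near-empty levels of Lalba were 0.529 and 17.5 CPM. The kinase gene Pim3 had 72.3 and 292 CPM (2.02, 1.90 to 2.14), and it was found in 37.9% and 69.5% of members. Bcl3, an atypical inhibitor of the NF-kB family, had 16.2 and 116 CPM (2.84, 2.60 to 3.09), and it was found in 11.1% and 51.1% of members. Pim3 and Bcl3 were thus found in most B16-F10 members, and Inhbb and Lalba in a minority.

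Genes of JAK-STAT signalling, which carries signals of the interleukin 6 family from receptor to nucleus, were mostly higher. Of 34 measured members, 21 were higher and 6 lower beyond counting error, with 8 called higher and none lower, and the median was 0.34. Socs3, the feedback inhibitor of this pathway, had 66.8 CPM in control and 488 CPM in the B16-F10 library (2.87, 2.75 to 2.99), and its share of positive members was 28.2% and 81.3%. The oncostatin M receptor gene Osmr had 52.0 and 141 CPM (1.44, 1.29 to 1.58). Myc, a growth-promoting transcription factor, had 0.207 and 11.5 CPM, from 2 UMIs and 153 UMIs. In the other direction, the leukemia inhibitory factor receptor gene Lifr had 392 and 297 CPM (-0.40) and the Janus kinase gene Tyk2 25.9 and 21.2 CPM (-0.29), neither of which reached 2-fold.

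NF-kB genes, which carry signals of inflammatory cytokines, had a median of 0.62 over 23 measured members, with 8 called higher and none lower. Besides Bcl3, the related inhibitor gene Nfkbiz had 7.75 and 38.3 CPM (2.31, 1.95 to 2.68). The subunit gene Rel had 50.3 and 39.4 CPM (-0.35). Immediate early and stress genes had the highest median of the functional groups, 1.14 over 25 measured members, with 14 called higher and 2 lower. Egr1, an early growth response factor, had 11.9 and 163 CPM (3.78, 3.51 to 4.06), and Gadd45g, a growth arrest gene, 18.8 and 147 CPM (2.96). The heat shock genes Hspa1b (11.1 and 2.71 CPM) and Hspa1a (8.58 and 4.22 CPM) were the 2 called lower.

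Of the adhesion molecules that hold leukocytes on the vessel wall, 2 were called higher, Vcam1 and Selp, both found in few cells. Vcam1 had 1.65 and 30.2 CPM (4.19, 3.47 to 5.01), yet 126 of its 401 UMIs in the B16-F10 library lay in 1 of 100 positive cells. Without the 3 richest cells its ratio was 4.08. P-selectin (Selp) had 1.03 and 14.2 CPM (3.78, 2.87 to 4.87) in 6 and 57 cells. E-selectin (Sele) had 0 UMIs in control and 44 UMIs in 14 cells, which was under the minimum of 50 UMIs, and on the arterial side it had 0.392 and 12.5 CPM. Icam1, the broadly present member of the group, had 108 and 179 CPM (0.73, 0.63 to 0.84). Over the 10 measured members, 6 were higher and 1 (Jam2) lower beyond counting error, with a median of 0.28.

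Markers of other cell types were present in the same sums at levels that ranged widely. The erythroid list had 1765 and 1114 CPM, with near-empty levels of 57024 and 43918 CPM. For Hbb-bs of this list, the 3 richest cells held 57.1% of the control UMIs. Without the 3 richest cells of each sum Hbb-bs had 343 and 547 CPM, and Alas2 had 2.69 and 1.73 CPM. The 10 myeloid markers summed to 27.7 CPM in control and 48.4 CPM, and the 10 mural cell markers to 49.2 and 63.4 CPM. The 8 melanoma markers summed to 1.03 and 33.5 CPM, with near-empty levels of 2.12 and 876 CPM. The lymphoid list had 2.07 and 14.0 CPM, with Igkc at 2 of 20 UMIs in control and 132 of 186 in the B16-F10 library, the fibroblast list 14.2 and 29.3 CPM, the epithelial list 504 and 445 CPM and the platelet list 115 and 106 CPM. The T cell marker Cd3d and the fibroblast marker Lum were at 0 in both libraries, but other members of their lists were not. In control and the B16-F10 library Cd79a had 2 and 17 UMIs, Cd79b 0 and 17 and Ms4a1 13 and 10. Inmt of the fibroblast list had 37 and 163 UMIs. Mlana and Dct were at 0 in control. Cells with no UMI of the platelet, mural, myeloid and melanoma lists numbered 731 in control and 519 in the B16-F10 library, and among these cells 229 genes were called higher and 158 lower, of which 177 and 94 were among the 320 and 205. The part of these other cells in the differences was not tested further.

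The metallothioneins Mt1 and Mt2, which bind zinc, also rose, but free RNA held them at higher levels than the cells did. Mt1 had 2.07 and 49.7 CPM (4.59) with near-empty levels of 67.7 and 339 CPM, and Mt2 0.310 and 13.8 CPM (5.47) with near-empty levels of 10.2 and 72.8 CPM. Ptgds had 0 UMIs in control and 58 UMIs, at least 14-fold higher, and its near-empty levels were 0.176 and 230 CPM. How much of these levels came from free RNA was not tested beyond a subtraction at 5% of each sum. Plaur, the urokinase receptor, had 48.8 and 125 CPM (1.36), whereas the anticoagulant receptor Thbd had 981 and 744 CPM (-0.40).

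Other genes named by rank were Bhlhe40, a circadian and stress repressor, with 4.55 and 48.0 CPM (3.40) in 35 and 348 cells, and Ch25h, which makes 25-hydroxycholesterol, with 0.413 and 9.34 CPM (4.50). Has2, a hyaluronan synthase, had 1 UMI in control and 54 UMIs in 26 cells. Adamts4, an aggrecanase, had 0 UMIs in control and 66 UMIs, of which 35 lay in 1 cell. Proliferation genes rested on few cells too, as the 51 UMIs of Mki67 in the B16-F10 library came from 9 cells. The broadly found members of this group were thus few, with Bhlhe40 in 24.3% of B16-F10 members.

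**Figure D4:**
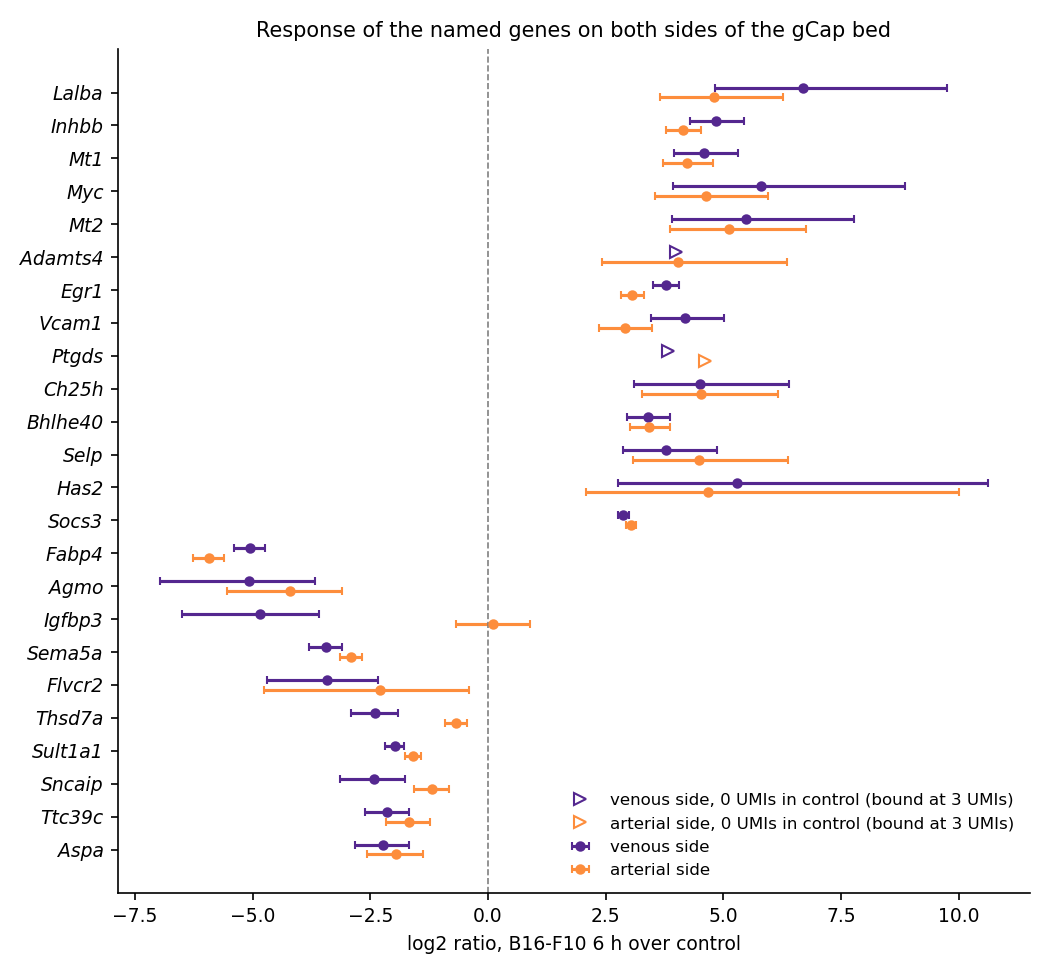
Log2 ratio of the B16-F10 library over control on the venous side (purple) and the arterial side (orange) for 14 genes called higher and 10 called lower that were named by rank, with exact 95% counting intervals and open triangles for bounds where control had 0 UMIs. The pairs lie on the same side of 0 except Igfbp3, whose arterial ratio is 0.10.

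The genes that were lower included regulators of vessel stability and of the BMP pathway. Angpt2, an antagonist of the Tie2 receptor, had 43.3 CPM in control and 19.8 CPM in the B16-F10 library (-1.13, -1.36 to -0.90), and the vasoconstrictor gene Edn1 had 257 and 128 CPM (-1.0, -1.09 to -0.91). Tek, which encodes Tie2, had 1195 and 850 CPM (-0.49). Of 8 measured genes of this axis 7 were lower beyond counting error and none higher, with a median of -0.46. BMP and activin genes had a median of -0.49 over 19 measured members, with 13 lower beyond counting error. The BMP target Id2 fell from 133 to 37.9 CPM (-1.80, -1.96 to -1.65) and the receptor-activated factor Smad9 from 9.92 to 2.94 CPM (-1.76), while Inhbb was the member called higher.

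The semaphorin gene Sema5a fell from 67.2 to 6.17 CPM (-3.44, -3.79 to -3.11), and its positive members were 18.4% and 4.4%. Sult1a1, a phenol sulfotransferase, had 80.0 and 20.3 CPM (-1.98, -2.18 to -1.77). Agmo, an ether lipid cleaving enzyme, had 98 UMIs in 34 control cells and 4 UMIs in 3 B16-F10 cells (-5.07, -6.98 to -3.67), and Flvcr2 had 62 and 8 UMIs. The fatty acid carrier Fabp4 had 195 and 5.87 CPM (-5.05), but 890 of its 1886 control UMIs lay in 1 cell. Without the 3 richest cells its ratio was -3.71, and its near-empty levels were 1413 and 166 CPM. Igfbp3 (-4.85) rested on 9 control cells, 1 of which held 77 of 105 UMIs. Cxcr4, the receptor of Cxcl12, had 15 and 4.44 CPM (-1.75), and the lipopolysaccharide receptor Tlr4 27.6 and 12.3 CPM (-1.16).

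Markers of vessel identity, again from the study's own lists, differed between the libraries as well. Most artery markers measured in these cells were lower, with 22 of 32 lower and 1 (Atp13a3) higher beyond counting error, a median of -0.67 and 10 called lower. General capillary markers were lower by less, with a median of -0.27, 31 of 47 lower beyond counting error and 1 called. For vein markers the summed level and the median differed. The sum was 1804 and 2308 CPM, while the median ratio was 0.03 with 11 higher and 10 lower of 31. Lrg1 (24.8 and 117 CPM, 2.23) and Tmem252 (49.0 and 321 CPM, 2.71), both named after their values were seen, were among the members that rose. Ackr3, another member of the list whose levels are given below, rose by more CPM than Lrg1. Nr2f2 had 28.9 and 31.7 CPM, a ratio of 0.13 with an interval that included 0 (-0.09 to 0.35). On the arterial side and in cells with no bias the medians of the vein list were 0.39 and 0.55.

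The remaining groups had no more than 5 members called in 1 direction. Ribosome biogenesis genes had a median of 0.56, with 26 of 30 higher beyond counting error and 3 called, among them Gnl3 (29.1 and 62.7 CPM, 1.11). MHC class I genes had a median of 0.41, with 16 of 18 higher beyond counting error and none called, and the peptide transporter Tap1 had the highest ratio (69.3 and 113 CPM, 0.71). Interferon markers had a median of 0.15. The VEGF axis had a median of 0.04, with Vegfa at a ratio of 0.19 (0.11 to 0.26) and the coreceptor Nrp1 at 675 and 567 CPM (-0.25). Notch genes had a median of -0.10 and junction genes of -0.11, each with 1 member called higher. Lipid uptake genes had a median of -0.24, in which Scarb1, a lipoprotein receptor, was the member called higher (117 and 341 CPM, 1.54). Matrix genes had a median of 0.28, with 5 of 22 called higher, among them Adamts4 and Col15a1 (2.07 and 10.4 CPM, 2.33), and Lama4 called lower (16.1 and 8.06 CPM). Muscarinic and ion channel genes had no call among 9 measured members.

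Interferon markers had slightly higher levels on the venous than on the arterial side. Of 50 members, 35 were higher beyond counting error in control and none lower, beside 1698 higher and 1663 lower of all 12721 genes. In the B16-F10 library 32 were higher and 1 lower, beside 1825 and 1819 of all genes. The medians were small, 0.20 and 0.19, no member reached 1.5-fold in both libraries, and the list is the study's own. In control the list summed to 4584 CPM on the venous side and 3926 CPM on the arterial side. Cells with no bias had 4357 CPM and vein cells 5280 CPM. In the B16-F10 library the same sums were 5195, 4543, 4713 and 5815 CPM, so vein cells stood above the venous side in both libraries.

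The start regions of 4 genes described above are printed because each holds TTCNNNGAA, the short palindrome that STAT dimers bind. The match is in capitals, on the strand of the gene, and the sequences are RefSeq GRCm38.p6. Socs3 (chr11:117969317-117969616, minus strand) has it 154 bases before the annotated start, Sele (chr1:164047984-164048283, plus strand) 140 bases before, Icam1 (chr9:21015690-21015989, plus strand) 42 bases before and Agmo (chr12:37241389-37241688, plus strand) 110 bases before. Agmo is shown since it holds the same letters and was lower in the B16-F10 library.
Socs3: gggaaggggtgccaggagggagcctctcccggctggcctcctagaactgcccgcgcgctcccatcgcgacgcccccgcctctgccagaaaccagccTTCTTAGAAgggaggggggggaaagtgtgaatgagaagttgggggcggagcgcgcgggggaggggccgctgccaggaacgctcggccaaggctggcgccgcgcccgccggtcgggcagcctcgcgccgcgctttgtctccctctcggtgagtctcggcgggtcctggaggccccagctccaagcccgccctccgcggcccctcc
Sele: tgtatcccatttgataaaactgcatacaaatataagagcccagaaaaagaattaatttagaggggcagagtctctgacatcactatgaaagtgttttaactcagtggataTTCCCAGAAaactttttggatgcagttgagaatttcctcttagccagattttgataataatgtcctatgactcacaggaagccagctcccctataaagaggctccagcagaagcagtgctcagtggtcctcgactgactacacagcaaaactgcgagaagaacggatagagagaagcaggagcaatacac
Icam1: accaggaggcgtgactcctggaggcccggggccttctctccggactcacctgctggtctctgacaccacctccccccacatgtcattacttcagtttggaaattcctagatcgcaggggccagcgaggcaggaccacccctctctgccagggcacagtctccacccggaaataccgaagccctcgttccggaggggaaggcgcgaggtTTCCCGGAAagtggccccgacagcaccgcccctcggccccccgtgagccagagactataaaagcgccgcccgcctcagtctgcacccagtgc
Agmo: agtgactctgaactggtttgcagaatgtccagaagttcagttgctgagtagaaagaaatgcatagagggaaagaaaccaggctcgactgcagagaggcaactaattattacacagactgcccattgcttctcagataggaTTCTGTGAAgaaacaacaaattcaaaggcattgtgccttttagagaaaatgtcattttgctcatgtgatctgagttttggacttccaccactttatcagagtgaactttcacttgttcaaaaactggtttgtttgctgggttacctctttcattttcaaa

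Such matches were common. The palindrome, which reads the same on both strands, was in 8.30% of the 32851 RefSeq start regions and in 8.30% of those of measured genes (735 of 8859). It was in 27 of 237 genes called higher (11.4%) and in 8 of 125 called lower (6.40%), among called genes that matched a start region. An NF-kB motif, GGGNNTTTCC on either strand, was in 1.63% of all start regions, in 6 of 237 called higher (2.53%) and in 3 of 125 called lower (2.40%). A match is a description of letters in this window and says nothing about binding.

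The size of the response was then compared between the sides of the gCap bed. The difference of the log2 ratios, venous minus arterial, was at least 2-fold with an interval above 0 in 111 of 12789 genes (0.868%) and below 0 in 140 (1.09%). No rCap marker was called, and the median difference over these 44 genes was 0.03. Socs3 had a difference of -0.17 (-0.33 to -0.01), Pim3 of -0.33 (-0.49 to -0.17) and Bcl3 of 0.33 (0.02 to 0.63), all small beside their ratios of 2.02 or more. Pim3 started from 72.3 CPM on the venous side and 58.5 CPM on the arterial side and had 292 and 297 CPM in the B16-F10 library.

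A larger difference was seen for Vcam1, at 1.29 (0.39 to 2.19). It started at 1.65 CPM on the venous and 2.43 CPM on the arterial side and had 30.2 and 18.2 CPM in the B16-F10 library. Its venous-side sum in the B16-F10 library rested in part on a single rich cell, as given above, and its control levels were low. Egr1 had a difference of 0.72 (0.36 to 1.08), with 163 CPM on the venous side and 99.9 CPM on the arterial side of the B16-F10 library. Gadd45g had a difference of 0.83, although its final level was higher on the arterial side, at 169 against 147 CPM. Ackr3, a scavenger receptor of Cxcl12, went the other way (-0.53), from 92.3 to 235 CPM on the venous and from 49.5 to 182 CPM on the arterial side. Thsd7a differed by -1.72 (-2.25 to -1.19), with ratios of -2.40 and -0.68.

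Most genes called in this comparison rested on few molecules. With a minimum of 200 UMIs on each side over both libraries, 2 calls higher and 9 lower remained, all among the calls above. Among the named genes Ulbp1, a ligand of the natural killer cell receptor NKG2D, had 3.20 and 9.03 CPM on the venous side in 28 and 76 cells and 5.49 and 4.36 CPM on the arterial side (difference 1.83, 1.08 to 2.57). The axon guidance gene Slit2 (1.84), the adhesion gene Cdh13 (2.15), Nrg1 (3.14), Gm15747 (3.35) and Olfr655 (2.38) were the other genes named as higher. Of these, Olfr655 had its 50 UMIs of the B16-F10 library in 10 cells. The phosphodiesterase genes Pde7b (-2.91), Pde2a (-3.57) and Pde3b (-2.28), the nuclear receptor Rorb (-2.05), Ifi27l2a (-2.09) and Igfbp3 (-4.95) were named as lower, each with at most 105 UMIs in a venous sum. Vein markers differed as a list, with a median of -0.26, 12 of 32 lower and 1 higher beyond counting error. Beside this, all 12789 genes had a median of 0.00, with 686 lower and 785 higher.

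Per cell, UMIs of the rCap list were higher in the B16-F10 library across most venous-side cells. The study drew this list partly from these libraries, so this is a description only. Near-empty levels of the list were higher as well, at 9676 CPM in control and 16798 CPM in the B16-F10 library. With each cell thinned to 3000 UMIs, which left out 29 control and 19 B16-F10 members, the median number of UMIs of the rCap list was 29 in control (quartiles 24 to 35) and 53 in the B16-F10 library (41 to 75). The 95th percentile of control venous-side cells was 46 UMIs. By construction few control members exceeded it (4.84%), and 61.6% of B16-F10 members did (59 to 64.2). On the arterial side 9.67% and 65.6% of cells exceeded the same value, and among cells with no bias 6.19% and 62.7%. The 5th percentile of B16-F10 members was 29 UMIs, equal to the control median.

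**Figure D5:**
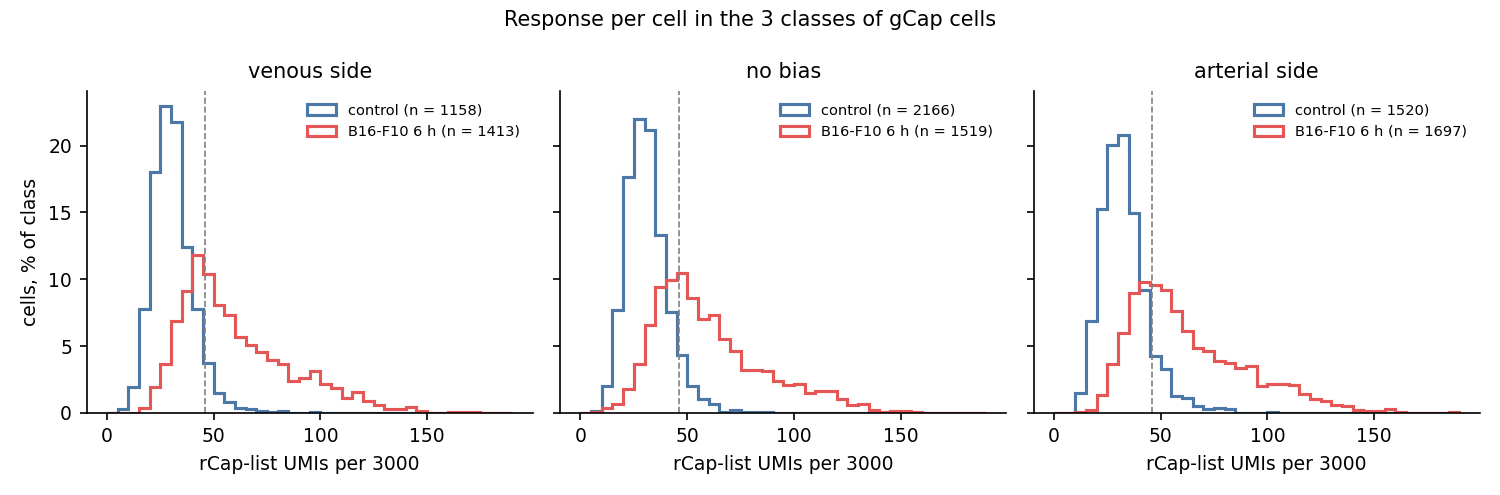
UMIs of the rCap list per cell after thinning to 3000 UMIs, as % of cells in each class, for venous-side, no-bias and arterial-side gCap cells in control (blue) and B16-F10 (red). The dashed line at 46 UMIs is the 95th percentile of control venous-side cells, which 61.6%, 62.7% and 65.6% of the B16-F10 cells exceed.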

How the data were processed

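RNA of sorted lung cells was measured in 2 droplet libraries of a 3′ kit, 1 control and 1 B16-F10. The deposited matrices hold UMI counts per gene and barcode, unfiltered, as the authors' pipeline wrote them. The submitters' processing notes name Cell Ranger 7.2.0, Seurat 4.4.0 and mm10, while the study's methods name an earlier Cell Ranger. Whether introns or strand entered the counting is not given in the sources used here.

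Counts were read with Python 3.11.15, scipy 1.17.1 and pandas 2.3.3, summed per library and class, and divided by the class total to give CPM. CPM intervals are exact Poisson, ratio intervals exact conditional binomial, shares Clopper-Pearson and their differences Newcombe, all at 95%. A sum of 0 was set to 3 counts and gives a bound. Response calls needed a 2-fold ratio and 50 UMIs over both sums, side calls a 1.5-fold ratio in both libraries and 50 UMIs over the 4 sums, and difference calls 2-fold and 20 UMIs on each side. "Beyond counting error" means an interval on 1 side of 0. Doublets were kept, and Scrublet in scanpy 1.11.5 gave an alternative that marked 7.00% of control and 7.18% of B16-F10 barcodes scored, and 4.89% and 4.05% of members. The other alternatives left out each venous gene or cells with UMIs of other cell types, changed the UMI minimum, the side rule or the mitochondrial limit, thinned the cells, subtracted free RNA at 5%, used means over cells or median-ratio scaling, and dropped the 3 richest cells of a gene. Scripts were tested on simulated sums with counting error only, which leaves out the spread between cells.

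Named genes were the rule's genes, the highest and lowest members of each list, and the leading genes of each comparison. The leading genes were ranked by the interval bound nearest to no difference, not by the size of the ratio. Tshz2, Efnb2, Me3, Lrg1, Tmem252, Lyve1, Prox1 and Igkc were named after their values were seen. So were Cd79a, Cd79b, Ms4a1, Inmt, Hbb-bs, Alas2, Ccl21a, Mmrn1, Reln, Maf and Pdpn. 1 gene that the rule names is not reported here. The members and lists were chosen with earlier results of these data known. Of 32285 gene identifiers, 32158 were found in GENCODE M21, and 110 of 146 named genes had a RefSeq start region.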

Additional observations from a re-analysis of the deposited data

Results flagged for a closer look

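Flagged here are 4 genes for which the libraries differed in opposite directions on the 2 sides of the gCap bed. These were not all such genes. In control and the B16-F10 library Hbb-bs had 800 and 558 CPM on the venous and 544 and 1041 CPM on the arterial side. With 1 library per group none of these differences was tested. For the hemoglobin genes the log2 ratio of the B16-F10 library over control was -0.74 on the venous and 1.44 on the arterial side for Hbb-bt, -0.82 and 0.87 for Hba-a1, and -0.80 and 0.98 for Hba-a2. The 3 richest cells held 63.1% of the Hba-a1 UMIs of the control venous side and 2.11% of those of the B16-F10 venous side. Without the 3 richest cells Hba-a1 had 155 and 234 CPM on the venous side and 151 and 226 CPM on the arterial side. For Pde7b, a phosphodiesterase, the ratios were -1.56 and 1.36, from 45 and 21 UMIs on the venous side and 24 and 75 UMIs on the arterial side.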

How the results depend on the processing

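Each value rests on 1 library per group, and depth limits genes under about 50 UMIs. No paired analysis was possible because there was only 1 library of each kind, and no replicate could be left out for the same reason. Of the summary values recomputed under each alternative, 321 stayed within their limits, 24 moved and 1 reversed, and of the single genes 2223 stayed, 222 moved and 1 reversed. The cause of these moves was not tested unless the setting itself keeps fewer cells, UMIs or genes. The share difference was 4.43 points without Chrm2 and 1.44 points without Kcnh1. The vein list's median side ratio in control and B16-F10 was 0.46 and 0.28 without Vegfc, and 1.26 and 0.79 without Chrm2. The rCap list's side median in the B16-F10 library reversed from -0.02 to 0.16 without Chrm2 and was -0.21 without Kcnh1, and its response median was 1.37 without Kcnh1. Leaving out cells with UMIs of other cell types gave 55 side calls lower and 91 difference calls lower. Thinning cells to 3000 UMIs gave 209 response calls higher and 120 lower, 49 side calls higher and 64 lower, and 90 difference calls lower, of which 22 were among the 140. A minimum of 20 UMIs gave 352 response calls lower. A minimum of 200 UMIs gave 169 response calls higher and 75 lower, 63 side calls lower, and 2 difference calls higher and 9 lower. Leaving out the 3 richest cells of each gene, a setting chosen after seeing the data, gave 83 difference calls lower, and Cxcl10 reversed to 0.40 in control. The share of B16-F10 members above the control limit was 57.9% at 2000 UMIs per cell and 38.6% at the 99th percentile.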
